A study of Mus musculus with 15 samples.

Results

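The lysosome is the acidic compartment in which the cell takes apart proteins, glycans and lipids. Transcripts of 45 mouse genes that build it were followed after a single engineered protein was made to unfold inside the cell. The genes were taken by symbol from a fixed list, out of 20207 genes in each table. That list was chosen with earlier results of these data known. They comprised 15 genes of the vacuolar proton pump (V-ATPase, symbols starting with Atp6) and 30 other genes, which coded for proteases, glycosidases and a sulfatase, lipid hydrolases and their helper proteins, and lysosomal membrane proteins. Poly(A) RNA was sequenced from NIH3T3 cells, a mouse fibroblast line, that stably expressed DD-sfGFP. In this fusion a destabilizing domain (DD) derived from FKBP is joined to superfolder GFP, and the DD is folded while its ligand Shield-1 (S1) is bound and unfolded when S1 is withdrawn. The 5 control samples carried the same transgene and were labelled as unstressed with time 0. The other samples were labelled unfolded DD and were collected 45 min (3 samples), 135 min (3 samples) or 405 min (4 samples) after S1 removal, which the methods describe as adding a purified FKBP protein that takes up S1. Whether the controls received a mock addition was not given in the sources used here. All groups came from a line sorted for high GFP, and whether replicates were separate cultures was not given, so p-values measure the spread between these samples, which may be technical.

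The V-ATPase acidifies the lysosome. Its V1 sector hydrolyses ATP on the cytosolic side, and its membrane-embedded V0 sector carries the protons across. The hydrolases in the lumen are synthesized in the endoplasmic reticulum, sorted by mannose 6-phosphate receptors and work at the low pH that the pump provides. Many of these genes are known to share a promoter element, called CLEAR, which holds the letters CACGTG and is bound by TFEB and its relatives TFE3 and MITF when signalling from mTORC1 at the lysosomal surface falls.

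To show where that element lies, the RefSeq promoter windows of these genes were searched (GRCm38.p6, 300 bases, most of them before the annotated start site). Windows were found for 38 of the 45 genes, and none were found for Atp6v1b2, Atp6v1c1, Atp6v1g1, Atp6v1h, Ctsb, Npc1 and Asah1. The palindrome CACGTG was present in 17 of 38 genes (44.7%), against 8.09% of the 27025 genes with a window and 12.4% of the 7161 genes that were both tested here and had one. It was found in 4 of 11 V-ATPase genes and 13 of 27 others. TCACGTG, searched on both strands and always overlapping the shorter motif, was present in 15 of the 38 (39.5%), against 4.29% and 7.44%. A match is a description of the letters and not of binding. Below, 4 windows are given for genes whose transcripts rose at 405 min and that held the motif (Ctsd, Gaa, Atp6v1a, Gla), followed by Lamp1, which held 4 copies and did not pass the test, and Lipa, which rose and held none. Sequences read 5′ to 3′ along the gene's strand, and capitals mark CACGTG.
Ctsd (chr7:142387778-142388077, minus strand): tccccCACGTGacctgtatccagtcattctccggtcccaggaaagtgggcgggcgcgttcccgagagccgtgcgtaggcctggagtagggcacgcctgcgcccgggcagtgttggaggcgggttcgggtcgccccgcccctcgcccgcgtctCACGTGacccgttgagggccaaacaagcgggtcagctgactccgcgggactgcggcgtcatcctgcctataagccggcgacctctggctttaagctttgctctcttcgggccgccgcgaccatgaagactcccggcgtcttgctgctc
Gaa (chr11:119267713-119268012, plus strand): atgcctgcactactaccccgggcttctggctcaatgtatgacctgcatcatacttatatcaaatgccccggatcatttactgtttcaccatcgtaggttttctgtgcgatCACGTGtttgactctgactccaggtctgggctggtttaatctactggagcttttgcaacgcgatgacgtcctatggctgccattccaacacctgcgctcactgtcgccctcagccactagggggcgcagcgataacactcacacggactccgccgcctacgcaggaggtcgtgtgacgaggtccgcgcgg
Atp6v1a (chr16:44139210-44139509, minus strand): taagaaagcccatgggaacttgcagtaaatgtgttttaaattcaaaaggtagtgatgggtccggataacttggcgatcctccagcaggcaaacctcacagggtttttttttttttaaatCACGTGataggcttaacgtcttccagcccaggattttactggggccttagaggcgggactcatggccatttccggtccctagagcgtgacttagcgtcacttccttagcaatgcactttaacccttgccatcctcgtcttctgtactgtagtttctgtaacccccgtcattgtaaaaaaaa
Gla (chrX:134600956-134601255, minus strand): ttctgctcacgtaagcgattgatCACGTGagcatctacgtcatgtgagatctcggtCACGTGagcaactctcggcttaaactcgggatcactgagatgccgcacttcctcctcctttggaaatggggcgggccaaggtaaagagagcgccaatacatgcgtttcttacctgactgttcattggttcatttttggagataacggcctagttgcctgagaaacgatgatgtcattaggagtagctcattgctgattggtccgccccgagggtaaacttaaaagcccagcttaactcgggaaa
Lamp1 (chr8:13158911-13159210, plus strand): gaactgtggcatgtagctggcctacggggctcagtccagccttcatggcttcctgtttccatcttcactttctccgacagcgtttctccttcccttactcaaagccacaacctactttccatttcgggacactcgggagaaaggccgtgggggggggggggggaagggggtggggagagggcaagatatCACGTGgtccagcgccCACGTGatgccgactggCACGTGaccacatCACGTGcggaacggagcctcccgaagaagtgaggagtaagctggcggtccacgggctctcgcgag
Lipa (chr19:34527425-34527724, minus strand): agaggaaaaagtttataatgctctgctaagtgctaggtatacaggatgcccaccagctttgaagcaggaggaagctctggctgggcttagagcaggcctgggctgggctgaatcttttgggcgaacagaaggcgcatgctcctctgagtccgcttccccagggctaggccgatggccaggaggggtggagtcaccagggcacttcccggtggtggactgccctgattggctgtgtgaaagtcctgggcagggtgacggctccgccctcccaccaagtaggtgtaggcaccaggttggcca
In Ctsd the copies began 245 and 98 bases upstream of the start site (positions -245 and -98), in Gaa at -140, in Atp6v1a at -131, and in Gla at -227 and -194. The Lamp1 copies began at -61, -45, -28 and -15. Of the other genes that rose at 405 min, Psap, Tpp1 and Grn also had no CACGTG in their windows.

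Total counts ran from 6652539 to 30258404 per sample. The 15 libraries fell into sets that the time points did not account for. When log2 CPM (counts scaled to the same library size) was regressed on the GC content of the transcripts, 5 libraries had slopes between -0.362 and 0.0552 per 10 percentage points of GC (library set 2: control 2, replicate 3 at 45 min, and replicates 1, 2 and 4 at 405 min) and 10 had slopes between -1.41 and -0.656 (library set 1). This split also separated the samples on the first principal component, which held 56% of the variance. Set 2 lay between 42.9 and 68.5 on it. Within set 1 control 3 lay apart at -109, the others being between -42.0 and 0.315, so that variance is not of the split alone. In a fit with group and library set as terms, 29 of the 41 lysosomal genes that could be tested differed between the sets at an adjusted p under 0.05 (edgeR). Of these 23 were higher in set 2, where 26% of all tested genes were called higher, and 6 were lower, where 24.1% of all genes were called lower. The sets were drawn from these same counts, so adjusted p-values for differences between sets are descriptions and not tests. All 135-min samples were in set 1 and 3 of 4 at 405 min were in set 2. For this reason changes are given from the fit with group alone, which takes its tool, its threshold and its removal of genes with 0 counts from the study's methods, and from the fit with library set as a second term. Fibroblast markers were present in every sample, with 6 genes (collagens, Vim, Pdgfrb, Thy1) summing to 10437 to 12426 CPM in controls, 11218 to 12211 CPM at 45 and 135 min and 8001 to 10604 CPM at 405 min, a difference whose part in the results was not tested. The 5 leukocyte and macrophage, 4 epithelial and 3 endothelial markers summed to at most 4.79, 2.61 and 3.83 CPM.

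In the control cells the membrane and luminal genes of the lysosome covered a wide range of levels. Levels are given as deposited RPKM, which corrects for transcript length but not for the slopes on GC content by which the libraries differed. The most abundant was the tetraspanin Cd63 with 301 RPKM ± 133 (SD, n = 5). The cysteine protease cathepsin L (Ctsl) followed with 268 RPKM ± 55.4, and the membrane glycoproteins Lamp2 and Lamp1, which line the lysosome, had 192 RPKM ± 65.6 and 114 RPKM ± 36.7. Psap, the precursor of the saposins that help glycosidases act on lipids, had 99.6 RPKM ± 50.8. The spans of neighbours in this order overlapped, so the order among them is not resolved. Among the pump genes the V1 subunit Atp6v1g1 stood highest with 172 RPKM ± 49.7, above Atp6v1d with 40.3 RPKM ± 19.7 and Atp6v1f with 35.2 RPKM ± 16.3. Atp6v1g1 did not overlap with those in any control sample, its lowest value being 121 RPKM and their highest 71.8 and 55.6. At the other end were the sulfatase Sgsh (0.513 RPKM ± 0.480), the membrane protein Cln3 (0.363 RPKM ± 0.289) and Ctsf, which was listed at 0 in every control.

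**Figure D1:**
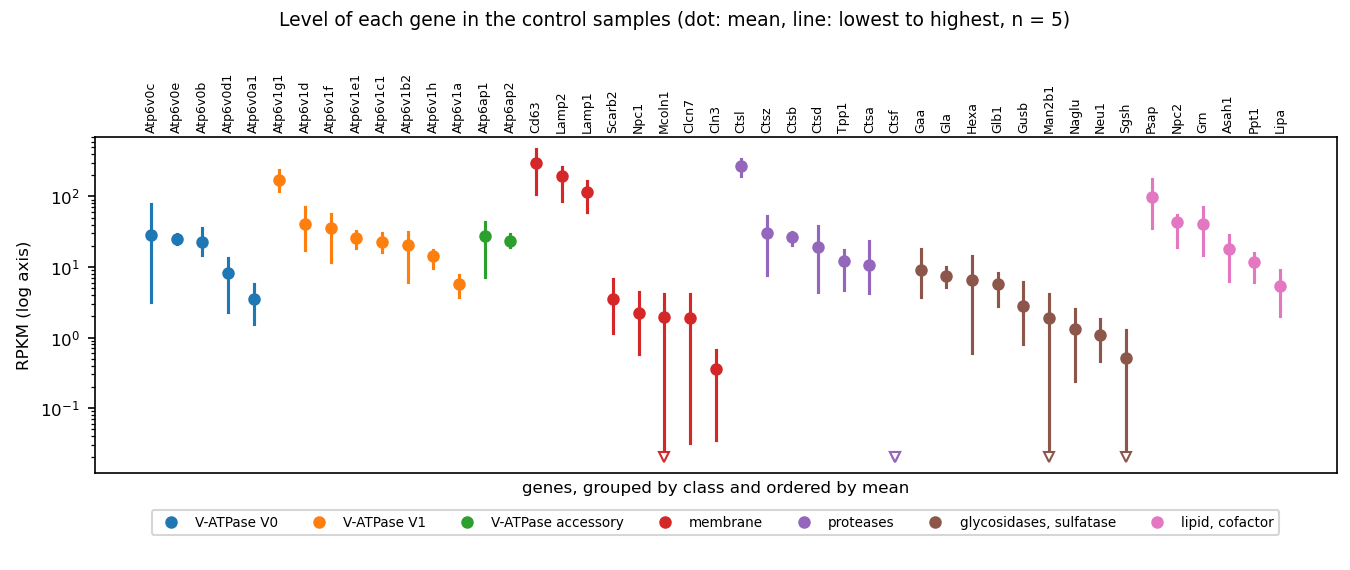
RPKM (log axis) of the 45 genes in the 5 control samples, with dots for the mean and lines from the lowest to the highest sample, grouped by class. Triangles mark genes with a sample at 0. Cd63, Ctsl, Lamp2, Atp6v1g1 and Lamp1 stand highest, and Ctsf is at 0 throughout.

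Of the 45 genes, 41 had at least 1 count in every sample and entered the tests, among them all 15 V-ATPase genes. Ctsf, Mcoln1 (a lysosomal calcium channel), Man2b1 (a mannosidase) and Sgsh did not. Mcoln1, Man2b1 and Sgsh were missing only from control 3, the shallowest library. Man2b1 had 12.0 to 32.6 CPM in the other 4 controls and 29.3 to 46.5 CPM at 405 min, and only control 2 lay above the lowest of the latter. Mcoln1 had 4.61 to 15.4 CPM in those controls and 9.998 to 16.9 CPM at 405 min, and Sgsh 2.85 to 10.3 CPM and 6.40 to 10.3 CPM. For Ctsf 6, 3 and 4 counts were found in replicates 1, 2 and 4 at 405 min, all of set 2, and none in the other samples. Without the filter on low counts none of the 4 passed the test at 405 min, with edgeR adjusted p between 0.111 (Ctsf) and 0.449 (Mcoln1).

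Among the 41 tested genes, 10 rose in the 405-min samples relative to control and none fell (edgeR quasi-likelihood test, adjusted p under 0.05). This is 24.4% of them, against 9.99% of all 10276 tested genes called higher and 13.4% called lower. Since the list was chosen with earlier results of these data known, the difference in shares is a description and was not tested. Within library set 1, where 1 sample at 405 min was set against 4 controls, 1 gene rose (1.18% of all tested genes), and within set 2, with 3 samples against 1 control, 3 rose (2.36%). In both, 1 arm was a lone sample assumed to vary like the others, so these counts are given as values only. The largest change was that of Ctsd, followed by Gaa, Npc1, Atp6v1a, Lipa, Psap, Atp6v1h, Grn, Tpp1 and Gla. With the library set as a term 8 rose (19.5%, against 6.17% of all tested genes) and none fell (6.87% of all genes). Atp6v1a, Atp6v1h, Ctsd, Gaa, Npc1, Psap and Lipa passed in both fits, Grn, Tpp1 and Gla in the first alone, and Atp6v1d in the second alone. By class, 2 of 15 V-ATPase genes rose (13.3%) and 8 of 26 others (30.8%) in the group-only fit. The share of the pump genes was near the 9.99% of all tested genes. With the set term 3 of 15 and 5 of 26 rose, where 6.17% of all tested genes did. The difference between these classes was not tested. DESeq2 on the same genes called 15 higher (14% of all tested genes) and 1 lower, Lamp2 (19.2%). At an unadjusted p under 0.05, edgeR put 26 of the 41 genes, higher and lower together, where 41.1% of all tested genes were. The group-only count moved with single libraries, being 24 higher and 3 lower without control 2 (24.5% and 23.9% of all tested genes), 18 and 3 without replicate 3 at 405 min (14.7% and 20.1%), and 6 and 0 without replicate 1 at 405 min (4.06% and 5.37%). Since whole cultures were measured, more transcript per cell and more cells of a kind cannot be told apart.

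**Figure D2:**
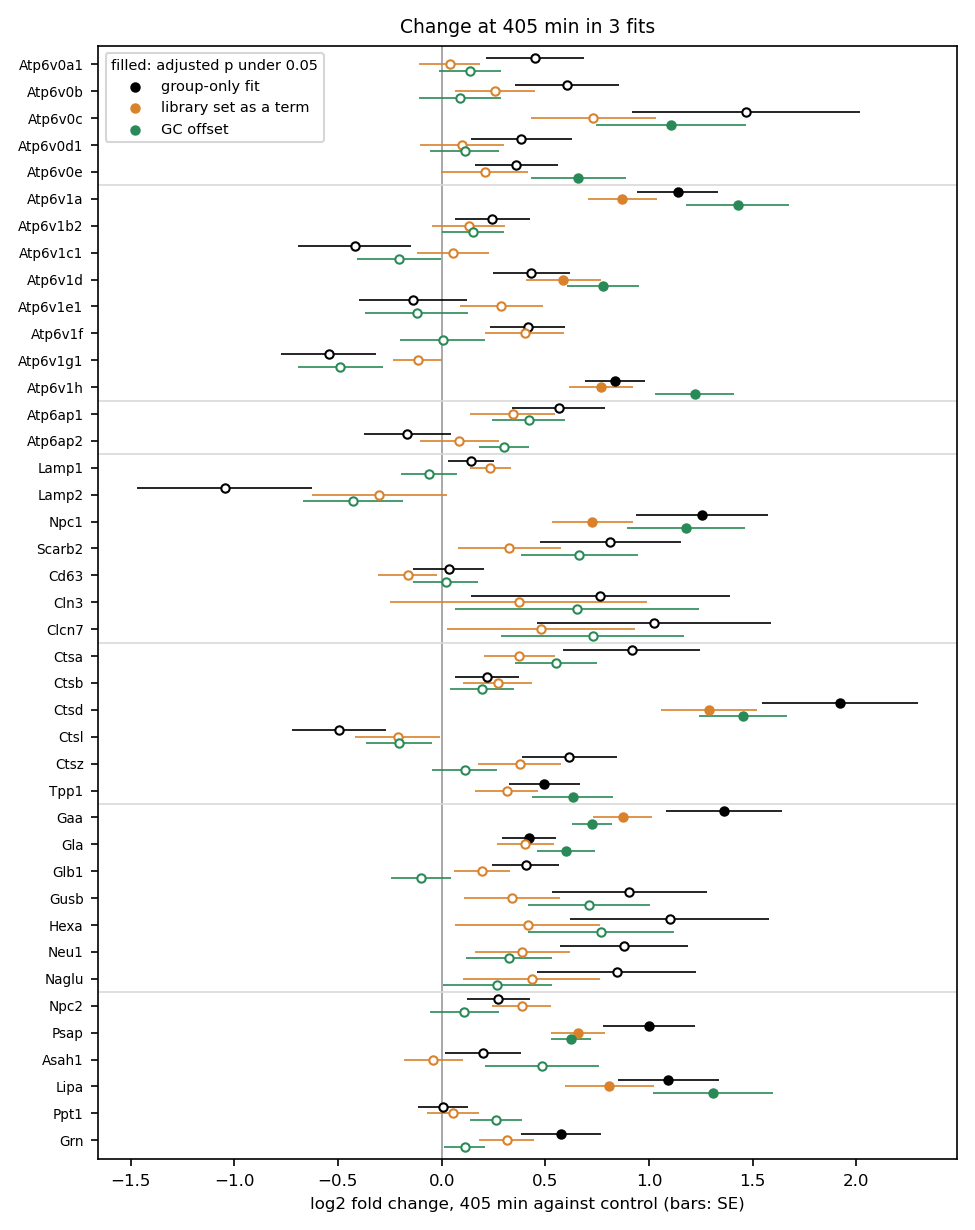
Log2 fold change of the 41 tested genes at 405 min against control (x axis, bars for SE) from the group-only fit, the fit with library set as a term and the fit with a GC offset. Filled points have an adjusted p under 0.05. Ctsd, Gaa, Npc1, Psap, Lipa, Atp6v1a and Atp6v1h are filled in all 3 fits.

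Among the pump genes, both that rose with group alone belong to the V1 sector. With the GC offset, described below, V0 genes passed too, and a difference between the sectors was not tested. Atp6v1a (chr16:44085517-44139132, mm9), the catalytic A subunit that binds and hydrolyses ATP, had 46.2, 53.8, 59.4, 40.4 and 54.1 CPM in controls 1 to 5. Its values were 39.0, 43.9 and 79.2 CPM at 45 min and 52.7, 51.4 and 45.8 CPM at 135 min. At 405 min they were 122, 111, 90.9 and 121 CPM, above every sample of the other groups. The means were 50.8 CPM ± 7.47 (SD, n = 5) in controls and 111 CPM ± 14.4 (SD, n = 4) at 405 min. This is a log2 change of 1.14 (SE 0.20), or 2.20-fold (edgeR adjusted p = 0.00160), and of 0.87 (SE 0.17, adjusted p = 0.00240) with the set term. Over the 28 alternative settings tried for this comparison the adjusted p of Atp6v1a ran from 2.72e-06 to 0.0771, and that of Atp6v1h, described next, from 2.91e-06 to 0.260.

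Atp6v1h (chr1:5073254-5152630), the H subunit that regulates the joining of V1 to V0, also rose without overlap. Controls 1 to 5 had 73.9, 59.3, 77.5, 64.2 and 51.2 CPM. The samples at 45 min had 51.5, 59.4 and 63.0 CPM and those at 135 min 60.7, 67.2 and 63.8 CPM. At 405 min the values were 134, 116, 97.1 and 116 CPM, all above the highest value of the other groups, 77.5 CPM in control 3. The log2 change at 405 min was 0.84 (SE 0.14), or 1.78-fold (edgeR adjusted p = 0.00161), and 0.77 (SE 0.16, adjusted p = 0.00355) with the set term. Atp6v1h differed little between the library sets themselves, by 0.12 on the log2 scale (adjusted p = 0.498).

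Atp6v1d (chr12:79943969-79962625), a subunit of the central rotor stalk, was called only with the set as a term. It had 94.6 to 181 CPM in controls and 122 to 208 CPM at 405 min, so the groups overlapped. With group alone its log2 change was 0.43 (SE 0.19, edgeR adjusted p = 0.0943), and with the set term 0.59 (SE 0.18, adjusted p = 0.0437). Among the most abundant pump genes, Atp6v1g1, a subunit of the peripheral stalk, had 230 to 500 CPM in controls and 201 to 396 CPM at 405 min (log2 change -0.55, SE 0.23, adjusted p = 0.0906). With the set term its log2 change was -0.12 (SE 0.12, adjusted p = 0.560). Atp6v1f had 30.8 to 63.0 CPM in controls and 54.9 to 70.7 CPM at 405 min (log2 change 0.41, SE 0.18, adjusted p = 0.0998). The other V1 genes, Atp6v1b2, Atp6v1c1 and Atp6v1e1, had log2 changes of 0.25, -0.42 and -0.14 and did not pass.

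No V0 gene passed with group alone or with the set term, while Atp6v0c and Atp6v0e passed with the GC offset, described below. Atp6v0c, the proteolipid whose copies form the proton-carrying ring, had the largest value, a log2 change of 1.47 (SE 0.55, edgeR adjusted p = 0.0640). It had 14.8 CPM in control 3 and 166 CPM in control 2, and 83.2 to 255 CPM at 405 min, so the groups overlapped. With the set as a term its log2 change was 0.73 (SE 0.30, adjusted p = 0.125). The other V0 genes had log2 changes between 0.36 and 0.60 with group alone. Neither accessory gene, Atp6ap1 or Atp6ap2, passed (0.57 and -0.17). Over the 15 pump genes the median log2 change at 405 min was 0.41 with group alone and 0.26 with the set term, against -0.0014 and -0.010 over all tested genes.

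Of the proteases, cathepsin D (Ctsd, chr7:149561821-149573775), an aspartic protease of the lumen, had the largest change of all 41 genes. Controls 1 to 5 had 58.6, 135, 34.6, 60.5 and 89.4 CPM, with the highest value in control 2 of set 2. At 45 min the samples had 87.3, 60.2 and 168 CPM, the last again in set 2, and at 135 min 83.7, 88.8 and 87.8 CPM. At 405 min they had 421, 270, 150 and 302 CPM, above all controls, and the lowest was replicate 3 of set 1. Means were 75.6 CPM ± 38.4 (SD, n = 5) and 286 CPM ± 111 (SD, n = 4). The log2 change was 1.92 (SE 0.38), or 3.78-fold (edgeR adjusted p = 0.00371), and 1.29 (SE 0.23), or 2.45-fold, with the set term (adjusted p = 0.00145). Within set 1 the single 405-min sample differed from 4 controls by 1.29 on the log2 scale, and within set 2 the 3 samples differed from the single control by 1.31, values in which 1 arm has no spread of its own. Over all alternatives the adjusted p of Ctsd ran from 1.25e-05 to 0.0882.

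Tpp1 (chr7:112893361-112900721), a serine protease that removes tripeptides, had 66.8 to 108 CPM in controls and 113 to 148 CPM at 405 min. The groups did not overlap, but the change was small (log2 0.49, SE 0.17, edgeR adjusted p = 0.0497) and did not pass with the set term (0.31, SE 0.15, adjusted p = 0.197). Over the alternatives its adjusted p ran from 0.0163 to 0.572. Ctsl, the most abundant protease transcript, ran from 712 to 1880 CPM in controls and from 632 to 1168 CPM at 405 min. Its log2 change of -0.49 (SE 0.23) did not pass (adjusted p = 0.116), and it was lower in set 2 than in set 1 by 0.49 on the log2 scale. Ctsa, Ctsb and Ctsz had log2 changes of 0.92, 0.22 and 0.62 and did not pass with edgeR in either fit.

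Among the glycosidases, acid alpha-glucosidase (Gaa, chr11:119129281-119147012), which degrades glycogen in the lysosome, rose most. Controls 1 to 5 had 56.8, 120, 55.2, 57.1 and 64.3 CPM, those at 45 min 77.5, 68.0 and 127 CPM, and those at 135 min 70.1, 71.3 and 73.5 CPM. At 405 min the samples had 258, 160, 110 and 197 CPM. The only overlap with the controls was between replicate 3 at 405 min (set 1) and control 2 (set 2), and within each set all 405-min samples were above the controls. Means were 70.7 CPM ± 27.9 (SD, n = 5) and 181 CPM ± 62.3 (SD, n = 4). The log2 change was 1.36 (SE 0.28), or 2.57-fold (edgeR adjusted p = 0.00473), and 0.87 (SE 0.14), or 1.83-fold, with the set term (adjusted p = 0.000621). Within set 1, where 1 sample stood for 405 min, Gaa differed from the controls by 0.91 on the log2 scale, and within set 2, where 1 sample stood for the controls, by 0.78. Its adjusted p over the alternatives ran from 7.63e-05 to 0.13.

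Gla (chrX:131122708-131135544), alpha-galactosidase A, rose by a small amount with little spread. It had 42.7 to 63.4 CPM in controls, 53.8 to 60.2 CPM at 135 min and 65.1 to 70.7 CPM at 405 min. This gave a log2 change of 0.42 (SE 0.13, edgeR adjusted p = 0.0334), and 0.40 (SE 0.14, adjusted p = 0.0633) with the set term. Adjusted p ran from 0.00443 to 0.506 over the alternatives. The sets hardly differed for it (0.04 on the log2 scale, adjusted p = 0.818). The other tested glycosidases, Glb1, Gusb, Hexa, Neu1 and Naglu, had log2 changes from 0.41 to 1.1 at 405 min and did not pass in either edgeR fit. With the set term their changes lay between 0.20 and 0.43.

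Of the genes for lipid handling and cofactors, Psap, Lipa and Grn rose. Psap (chr10:59747209-59765347) had 507, 858, 367, 476 and 505 CPM in controls 1 to 5, 630, 548 and 826 CPM at 45 min, and 655, 592 and 677 CPM at 135 min. At 405 min it had 1291, 1090, 791 and 1154 CPM. As with Gaa, the single overlap was between control 2 and replicate 3 at 405 min, which belong to different sets. The log2 change was 1.0 (SE 0.22), or 2.0-fold (edgeR adjusted p = 0.00710), and 0.66 (SE 0.13, adjusted p = 0.00320) with the set term. The alternatives gave adjusted p between 0.000239 and 0.297. The tables of the 5 set 2 libraries listed a start for Psap at 59740376 and those of set 1 at 59747209, so the listed spans of this gene differed between the sets. The part of that in its value was not tested. For Gaa, 4 of the 5 set 2 tables listed a start at 119129322, and the other 11 tables listed 119129281.

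Lipa (chr19:34566806-34601964), the acid lipase that frees cholesterol and fatty acids from lipoprotein lipids, had 25.7, 41.9, 24.4, 28.6 and 47.6 CPM in controls. It had 35.7, 26.4 and 58.4 CPM at 45 min, 33.8, 32.3 and 37.4 CPM at 135 min, and 70.6, 68.0, 61.3 and 86.9 CPM at 405 min. All 405-min samples were above all others, the set 1 sample included. The log2 change was 1.09 (SE 0.24), or 2.13-fold (edgeR adjusted p = 0.00765), and 0.81 (SE 0.21, adjusted p = 0.0199) with the set term. The alternatives gave adjusted p between 0.000288 and 0.185. Grn (chr11:102291636-102298121), which codes for progranulin, had 138 to 305 CPM in controls and 255 to 340 CPM at 405 min. Its log2 change was 0.57 (SE 0.19, edgeR adjusted p = 0.0444), and 0.31 (SE 0.13, adjusted p = 0.137) with the set term. For Grn the alternatives gave adjusted p between 0.00158 and 0.934.

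Of the membrane proteins only Npc1 (chr18:12348203-12394895), which exports cholesterol from the lysosome, passed. Controls 1 to 5 had 18.9, 43.1, 12.2, 25.9 and 20.5 CPM, the samples at 45 min 25.3, 22.6 and 40.0 CPM, and those at 135 min 30.1, 29.6 and 25.96 CPM. At 405 min the values were 72.1, 60.3, 32.2 and 66.4 CPM. The set 1 sample at 405 min lay below control 2 and above the 4 controls of its own set. Npc1 differed from control at 405 min by a log2 change of 1.26 (SE 0.32), or 2.39-fold (edgeR adjusted p = 0.0147), and 0.73 (SE 0.19), or 1.66-fold, with the set term (adjusted p = 0.02). Over the alternatives the adjusted p of Npc1 ran from 0.000807 to 0.298. Its luminal partner Npc2, which hands cholesterol to Npc1, had a log2 change of 0.27 (SE 0.15, adjusted p = 0.179). The ceramidase Asah1 and the thioesterase Ppt1 had log2 changes of 0.20 and 0.01.

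The abundant structural proteins did not pass. Lamp1, with 4 copies of CACGTG in its window, had 489 to 660 CPM in controls and 586 to 680 CPM at 405 min (log2 change 0.14, SE 0.11, edgeR adjusted p = 0.327). Cd63 had 397 to 786 CPM in controls and 481 to 657 CPM at 405 min (0.03, SE 0.17, adjusted p = 0.891). Lamp2 had the lowest value of all, a log2 change of -1.05 (SE 0.42, adjusted p = 0.0797). Its CPM ran from 277 in control 2 to 1859 in control 3, and from 284 to 672 at 405 min, and with the set term the change was -0.30 (SE 0.33, adjusted p = 0.593). Scarb2, Clcn7 and Cln3 had log2 changes of 0.81, 1.02 and 0.76 with adjusted p of 0.0896, 0.177 and 0.355. Over the 26 genes outside the pump the median log2 change was 0.69 with group alone and 0.37 with the set term.

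**Figure D3:**
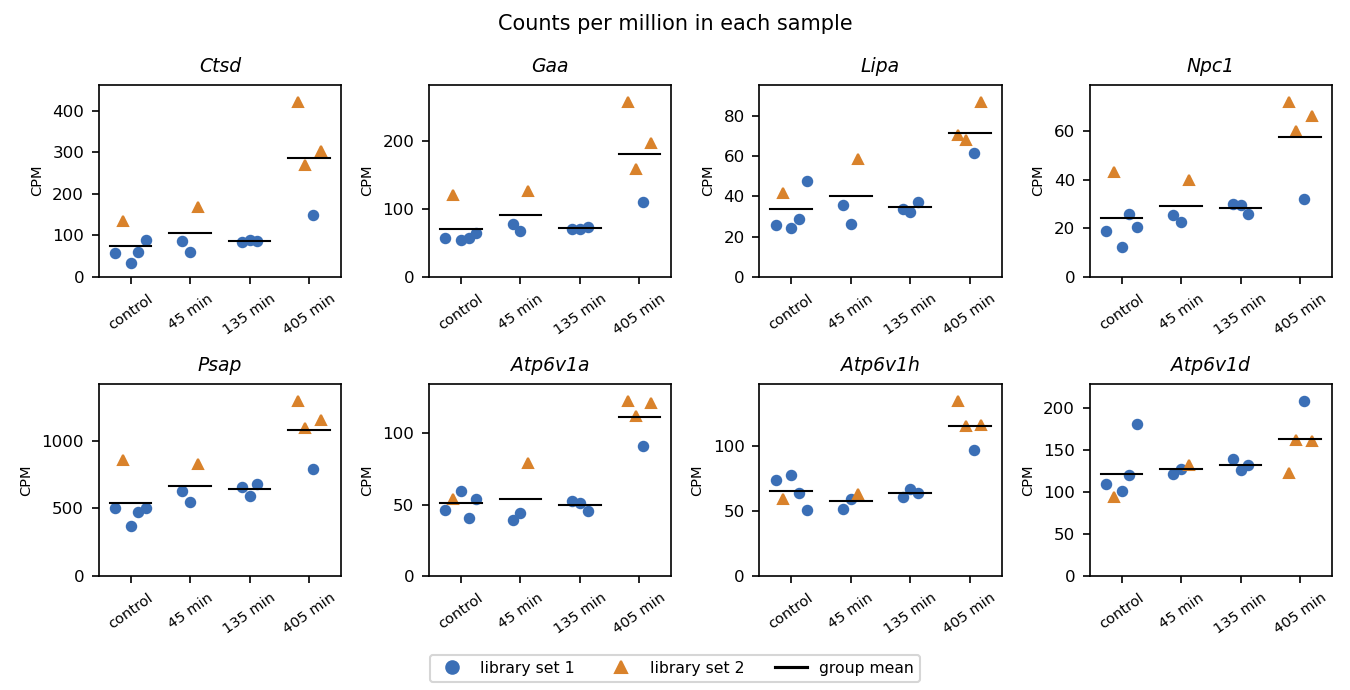
CPM of 8 genes in each sample, by group (x axis), with circles for library set 1, triangles for set 2 and bars for group means. Within each set the 405-min values of Ctsd, Gaa, Lipa, Psap, Atp6v1a and Atp6v1h are above the controls.

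The changes at 405 min were also set beside transcript GC content, the quantity on which the split into library sets rested. Across the 41 genes the difference between sets had a Pearson correlation of 0.66 with transcript GC (Spearman 0.65), and the 405-min change of the group-only fit had one of 0.57 with GC and of 0.88 with the set difference. With the set term the correlation of the 405-min change with GC was 0.34. The sets were themselves split by the slope of counts on GC, so a positive correlation of their difference with GC was largely built in. Set 2 libraries were also unevenly spread over controls and 405 min, which ties the group-only 405-min change to the set difference. Genes share libraries and are not independent, so these correlations are descriptions. The median GC of the tested lysosomal transcripts was 51.2%, that of all tested genes 49.6%. When a smooth of counts on GC was fitted per sample as an offset, 12 of the 41 rose at 405 min, against 12.1% of all genes called higher, and none fell (14.6% of all genes). These comprised the 7 that passed in both other fits, Gla and Tpp1, and from the pump Atp6v0c, Atp6v0e and Atp6v1d. In that fit Grn had a log2 change of 0.11 (SE 0.10, edgeR adjusted p = 0.416).

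**Figure D4:**
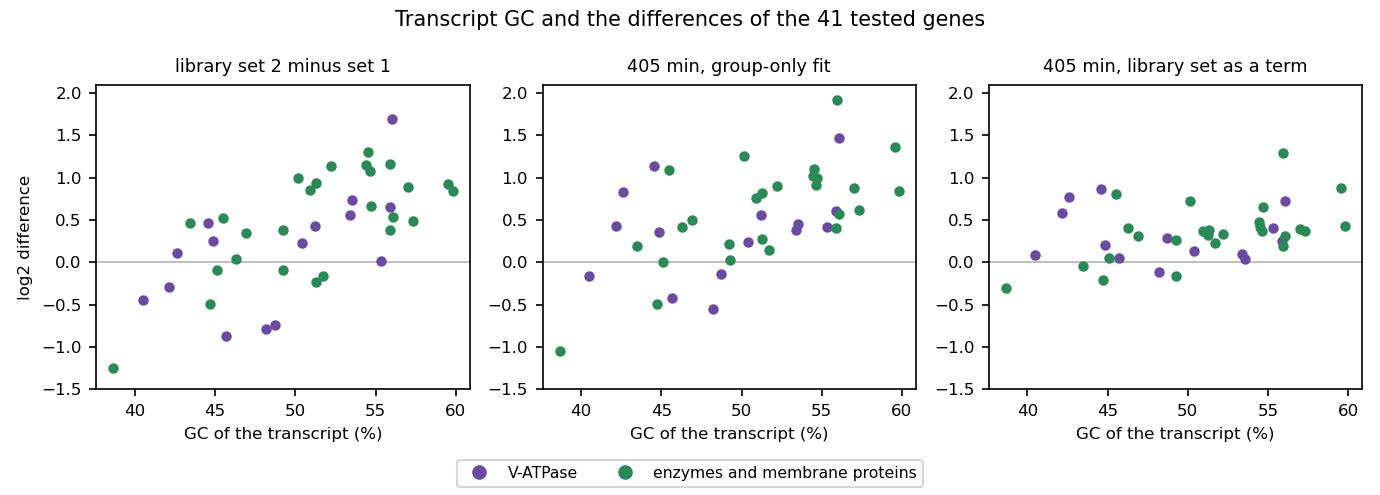
Transcript GC content (x axis, percent) of the 41 tested genes against the log2 difference between library sets (left), the log2 change at 405 min from the group-only fit (middle) and from the fit with library set as a term (right). The slope on the left is largely built in, since the sets were split by their slope on GC. A slope is also seen in the middle panel and is weaker on the right, where the correlation is 0.34.

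At the earlier times no lysosomal gene passed. At 45 min 0 of 41 rose and 0 fell with edgeR, where 0% of all tested genes were called in either direction, with 0 at an unadjusted p under 0.05 (3.55% of all genes) and a lowest adjusted p of 0.698. DESeq2 called none of the 41 (0.0195% of all genes higher and 0.0389% lower), and the fit with the set term called none (0.0292% of all genes higher and 0.00973% lower), with 3 at an unadjusted p under 0.05 (9.63% of all genes). At 135 min 0 of 41 rose (0.564% of all genes) or fell (0.895%). The unadjusted p was under 0.05 for 11.9% of all genes and for 1 of the 41, Npc2, with 258 to 362 CPM in controls and 401 to 440 CPM at 135 min (log2 change 0.44, SE 0.16, edgeR adjusted p = 0.265). This was also the single gene of the list whose 135-min samples were all above all controls, where 4.79% of all tested genes were. DESeq2 called none of the 41 at 135 min (1.57% of all genes higher and 2.62% lower). With the set term 8 had an unadjusted p under 0.05, 6 higher and 2 lower, where 28.1% of all genes had one, and none passed (3.06% of all genes were called higher and 4.88% lower), the nearest being Psap (0.42, SE 0.13, edgeR adjusted p = 0.0549). The medians at 135 min were -0.03 for the pump and 0.02 for the other genes with group alone, and 0.03 and 0.16 with the set term.

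**Figure D5:**
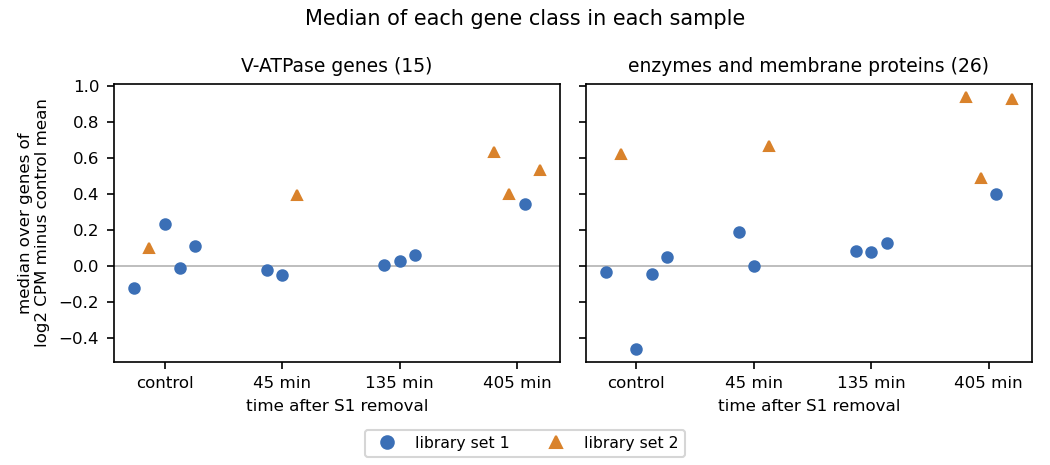
Median over the 15 V-ATPase genes (left) and the 26 other genes (right) of log2 CPM minus the control mean, for each sample by time after S1 removal. Set 2 samples (triangles) of the control and 45-min groups reach 0.62 and 0.67 on the right. The set 1 sample at 405 min has 0.34 on the left and 0.40 on the right, above the controls of its set, while in set 2 replicate 2 at 405 min has 0.49 on the right, below control 2.

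When 405 min was compared with 135 min, 6 genes were higher and none lower (edgeR, 2.24% and 2.82% of all tested genes). They were Ctsd (log2 difference 1.73, SE 0.45), Neu1 (1.45, SE 0.37), Gaa (1.35, SE 0.33), Atp6v1a (1.16, SE 0.23), Lipa (1.06, SE 0.28) and Atp6v1h (0.86, SE 0.17), with edgeR adjusted p between 0.0116 and 0.0459. Neu1, the lysosomal sialidase (chr17:35068198-35074242), had 5.34, 6.30 and 6.53 CPM at 135 min and 17.2, 14.4, 11.1 and 23.3 CPM at 405 min, with 6.46 to 13.1 CPM in controls (adjusted p = 0.0371). Every 405-min sample was above every 135-min sample for 23 of the 41 genes, where this held for 19.2% of all tested genes. Library set and time cannot be told apart for much of this comparison, since set 2 held no 135-min sample. With the set term 2 genes passed, Atp6v1a (0.80, SE 0.20, adjusted p = 0.0344) and Atp6v1h (0.77, SE 0.18, adjusted p = 0.0291), where 1.66% of all genes were called higher, and none was lower (2.01%). Within set 1, with a single sample at 405 min, none passed (0% of all genes), and 7 had an unadjusted p under 0.05 (11.6% of all genes). The count of 6 fell to 0 without any of the 3 samples at 135 min, to between 1 and 2 without replicate 1, 2 or 4 at 405 min and to 3 without control 4.

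Every sample at 405 min was above every control for Atp6v1a, Atp6v1h, Ctsd, Gla, Lipa and Tpp1, where 6.75% of all tested genes showed this. For none of the 41 was every 405-min sample below every control, as held for 6.43% of all genes.

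Genes of the same pathway outside the list were read from 5 lists of their own. The median log2 change at 405 min in the group-only fit was -0.02 for other V-ATPase genes, 0.41 for other hydrolases, 0.07 for other membrane proteins, 0.05 for the TFEB family and mTORC1, and 0.58 for sorting to the lysosome, against -0.0014 over all tested genes. These medians were 0.09, 0.24, 0.16, -0.13 and 0.26 with the set term, against -0.010 over all genes, so that the other V-ATPase genes and the TFEB and mTORC1 genes turned sign, and with the GC offset they were 0.33, 0.41, 0.07, -0.12 and 0.36. The counts below stand beside 9.99% of all tested genes called higher and 13.4% called lower with group alone, and 6.17% and 6.87% with the set term. Of 17 other V-ATPase subunits and assembly factors 8 were tested, and Tcirg1 (log2 change 1.73, SE 0.46, edgeR adjusted p = 0.0186) and Atp6v0a2 (1.13, SE 0.39, adjusted p = 0.0475), both isoforms of the V0 a subunit, rose at 405 min. The assembly factor Vma21, listed under its older symbol 2610030H06Rik, fell by 0.59 on the log2 scale (SE 0.15, adjusted p = 0.0132). Of 24 tested hydrolases 6 rose, among them the hyaluronidase Hyal2 (log2 change 1.45, SE 0.47) and the fucosidase Fuca1 (1.03, SE 0.35). The iduronidase Idua fell by 0.87 on the log2 scale (SE 0.28, adjusted p = 0.0378). Of 15 tested membrane proteins 2 rose, a share near that of all genes, the transporter Abca2 (1.89, SE 0.47) and Tmem55b (1.47, SE 0.46). With the set term Tcirg1, Abca2 and the fall of Vma21 passed and no hydrolase did.

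Sorting to the lysosome was represented by 16 tested genes, of which 5 rose (9.99% of all tested genes) and none fell (13.4%). They were Vps18, a subunit of the tethering complexes (log2 change 1.58, SE 0.41), the adaptor Gga2 (1.34, SE 0.31), the mannose 6-phosphate receptors Igf2r (0.80, SE 0.21) and M6pr (0.72, SE 0.16), and Sumf1 (0.50, SE 0.15), with edgeR adjusted p between 0.00849 and 0.0281. Sumf1 activates sulfatases and is not a sorting factor, but it was on this list and is in its counts. M6pr had 101 to 165 CPM in controls and 158 to 218 CPM at 405 min. All but Igf2r passed with the set term, 4 of 16 against 6.17% of all genes. Of 17 tested genes of the TFEB family and of mTORC1 at the lysosome, Rptor, the raptor subunit of mTORC1, rose (1.55, SE 0.32, adjusted p = 0.00462), as did Fnip2 (0.75), while Rragc fell by 1.13 on the log2 scale (SE 0.33, adjusted p = 0.0254). Rptor passed with the set term (0.97, SE 0.14, adjusted p = 0.000297) and Fnip2 and Rragc did not. Tfeb itself, listed as Tcfeb, had at most 3.28 CPM in any sample. At 45 min no gene of these lists passed in either fit, and at 135 min none did with group alone. In the fit with the set term, Tcirg1 (0.86, SE 0.26) and Hyal2 (0.88, SE 0.26) were higher at 135 min, and Tmem199, a V-ATPase assembly factor, fell by 0.68 on the log2 scale (SE 0.18). Of the 17 TFEB and mTORC1 genes 4 were lower in that fit, where 4.88% of all genes were called lower, with log2 changes of -0.86 for Mitf, -0.79 for Lamtor3 (listed as Mapksp1), -0.74 for Flcn and -0.67 for Fnip1 and edgeR adjusted p between 0.0144 and 0.0484. Against 135 min, Scpep1, Tmem55b, Rptor and M6pr were higher at 405 min with group alone, and Rptor and M6pr with the set term.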

How the data were processed

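RNA-seq tables of 15 samples (5 control, 3 at 45 min, 3 at 135 min, 4 at 405 min) were analysed. According to the labels and the study's methods, the authors prepared libraries from poly(A) RNA, using a random-hexamer protocol and in addition a NuGEN Encore kit, sequenced them on a HiSeq 2000 and mapped the reads to mm9 with RefSeq genes on DNAnexus. The aligner is not given in the sources used here. Each table deposited by the authors lists expected counts of reads per RefSeq gene, estimated from the mapped reads and not normalized. It also gives RPKM, which the authors computed per kilobase of gene and per library size. From the RPKM the authors derived a standard score across genes (Z score) and a ratio of each value to the root mean square, neither of which was used here.

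The counts were not all whole (8.71 to 15.6% of genes per sample had a fraction), although whole counts had been planned for, and were rounded. The 10276 genes without a 0 in any sample were fitted over all 15 samples with edgeR 4.0.16 (R 4.3.3) by group, with TMM scaling, the quasi-likelihood test and Benjamini-Hochberg adjustment at 0.05. Log2 values used a prior count of 2, SE was taken as the log2 change over the root of F, and CPM used the TMM-scaled library sizes. The comparisons with control share the 5 control samples. Totals were 6652539 to 18746456 counts in controls and 9479272 to 30258404 in the other samples. All 22 pairs of replicates differed beyond sampling noise (chi-square per degree of freedom 9.97 to 237).

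Library sets were split at a slope of -0.5 of log2 CPM on GC content, a value chosen after the slopes were seen. GC came from the longest protein-coding transcript per gene, and the GC offset used lowess with a span of 0.3. Alternatives included DESeq2 1.42.0, other filters and scaling, a replicate block and leaving out each sample. Of these steps only the group-only edgeR fit was tested on simulated data, which held no effect of library set or GC content. The split into library sets, the set term, the GC offset and DESeq2 were not tested in that way. Members and companion lists were chosen with earlier results of these data known. Any of the 45 genes could be named. Full values were given for those called in the group-only fit or the fit with library set, and for the 3 pump genes and 5 other genes with the highest control RPKM. From the companion lists, called genes were named, up to 6 a list with the largest change. Coordinates are mm9 as deposited, and promoter sequences are from RefSeq (GRCm38.p6).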

Additional observations from a re-analysis of the deposited data

Results flagged for a closer look

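Among the members and groups of 4 or 5 samples, 82 were tested for a single distant sample, and 5 had one whose gap to its nearest neighbour was a large share of the group's range. Chance flags about 1 in 20. In the controls these were Atp6v0e in replicate 3 (log2 CPM 6.12, 69.3 CPM, gap 0.768 of the range), Clcn7 in replicate 3 (log2 CPM -0.65, 0.522 CPM, gap 0.752), Atp6v1g1 in replicate 2 (log2 CPM 7.85, 230.2 CPM, gap 0.769) and Gaa in replicate 2 (log2 CPM 6.91, 120 CPM, gap 0.804). At 405 min it was Npc2 in replicate 3 (log2 CPM 8.81, 448 CPM, gap 0.857). Control 3 was the shallowest library and had the lowest slope on GC, control 2 was the only control of library set 2, and replicate 3 was the only 405-min library of set 1. Their part in these values was not tested.

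The change from control differed between 405 and 135 min for 6 genes (edgeR), which is the comparison of 405 with 135 min given above and no further test. The differences on the log2 scale were 1.16 for Atp6v1a (adjusted p = 0.0125), 0.86 for Atp6v1h (adjusted p = 0.0116), 1.73 for Ctsd (adjusted p = 0.0405), 1.35 for Gaa (adjusted p = 0.0321), 1.06 for Lipa (adjusted p = 0.0459) and 1.45 for Neu1 (adjusted p = 0.0371). No 135-min library belonged to set 2, and with the set term Atp6v1a and Atp6v1h passed.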

How the results depend on the processing

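Against control at 405 min, the 10 rising genes became 6 with the replicate block (3.24% of all tested genes), 6 when the fit held the 2 groups alone (3.41%), 1 within library set 1 and 3 within set 2, and ran from 6 to 24 when 1 sample was left out. Falling genes were 0, became 1 with DESeq2 and ran from 0 to 3 when 1 sample was left out. The 6 genes higher at 405 than at 135 min became 2 with library set as a term, 0 with the replicate block (0.0487%), 3 with no filter on low counts (0.423%), 3 with the replicate block and GC offset (1.18%), 21 when the fit held the 2 groups alone (16.6%), 0 within set 1 and 10 with DESeq2 (7.91%), and ran from 0 to 9 when 1 sample was left out. No comparison with set 2 was possible there. At 45 and 135 min rising and falling genes stayed at 0 when 1 sample was left out. At 135 min 1 gene (Psap) rose with library set as a term and control 3 left out, a setting chosen after seeing the data, as was library set as a term together with the GC offset. The median log2 change of the pump genes at 405 min (0.41) was 0.26 with the set term, 0.15 with the GC offset and 0.28 with both, and that of the other genes (0.69) was 0.37 with the set term and 0.26 with both. At 135 min the pump median (-0.03) was 0.026 with the set term, 0.016 with the GC offset and 0.078 with both, and that of the other genes (0.02) was 0.16 with the set term and 0.11 with both. When 1 sample was left out, the pump medians ran from -0.16 to 0.22 at 45 min, -0.091 to 0.0024 at 135 min and 0.32 to 0.47 at 405 min, and those of the other genes from -0.02 to 0.42, -0.061 to 0.19 and 0.53 to 0.95. The cause of these moves was not tested. For same-numbered samples of different groups, the mean correlation of deviations from the group means was -0.11 in 19 pairs, 4 of them above 0.1. It was 0.028 in the 64 pairs whose numbers differed. The deviations also went with library set, with a mean of 0.16 in 42 pairs of the same set and -0.17 in 41 pairs of different sets. Whether the numbers pair the samples therefore cannot be decided from these correlations. Of 442 values of single genes under alternatives, 306 kept their side of the threshold, 136 lost it and 0 changed sign. Against control at 405 min, Atp6v1a, Atp6v1h, Ctsd and Gaa passed in 27 of 28 alternatives, Lipa in 26, Psap in 25, Npc1 in 23, Gla in 16, Tpp1 in 7 and Grn in 5. Most of these alternatives were the group-only fit with 1 sample left out. They share libraries and do not account for library set, so the tallies are not independent results. At these depths Ctsf, Mcoln1, Man2b1 and Sgsh had samples at 0 and were tested only where the filter on low counts was dropped or changed.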
